A study of Mus musculus with 2 samples.

Results

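Glutathione S-transferases, glutathione peroxidases, peroxiredoxins and the enzymes that supply and control them were compared between gastrocnemius (GAS) muscle of Gde5 skKO and WT mice. The genes were chosen by name: Gsta, Gstm, Gstp, Gstt, Gstk, Gsto, Mgst, Gpx, Prdx, Txnrd and Ggt genes, with Gclc, Gclm, Gss, Gsr, Sod1 to Sod3, Cat, Nqo1, Hmox1 and Nfe2l2. These names covered 82 probes of 56 genes, among 41174 probes of 27745 gene names on the array. Of them, 81 probes had spots kept on both arrays, and 61 probes of 46 genes were tested, that is, well above background for at least 1 genotype on both arrays. The other 10 genes were not above background, here meaning that on at least 1 array neither genotype was well above it, apart from Prdx3, which lost a spot to an outlier mark. The prefix Ggt also took in Ggta1, a galactosyltransferase that has no known part in glutathione metabolism.

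Glutathione is a tripeptide that cells keep at high concentration, mostly as the reduced thiol. Glutathione peroxidases and peroxiredoxins reduce peroxides, the former with glutathione and most of the latter with thioredoxin, and glutathione reductase and the thioredoxin reductases return the oxidized partner at the cost of NADPH. Glutathione S-transferases join glutathione to electrophilic compounds, and the transcription factor Nrf2, encoded by Nfe2l2, drives many of these genes when cells meet electrophiles or oxidants. Contracting muscle forms superoxide and hydrogen peroxide, and it relies on these systems together with superoxide dismutases and catalase.

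Gde5 (Gpcpd1) encodes the enzyme that hydrolyses glycerophosphocholine. Male mice of 15 weeks on a normal diet were used. Gde5 skKO mice carry HSA-Cre with Gde5 flox/flox, so Cre is driven by the human skeletal actin promoter and cells of the muscle other than its fibres keep the gene. Controls are labelled wild-type. The methods name Gde5 flox/flox littermates for the contractile tests, a glucose tolerance test and a fasting challenge, and for the arrays they say only WT. The design names 5 mice of each genotype, but whether their RNA was pooled or the arrays hold different mice is not given. The study describes array comparisons after a glucose injection and after fasting, and the labels name a normal diet without saying in which of these states the muscle was taken. On array 1 WT RNA was labelled with Cy3 and Gde5 skKO RNA with Cy5, and array 2 had the dyes swapped. All ratios are log2 of Gde5 skKO over WT signal.

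A probe was called when the p-value of Feature Extraction, the scanner software, was under 0.05 on both arrays with the ratio in the same direction between genotypes. This p-value describes the spots of 1 hybridization, and with 2 arrays no test across mice was made. Of 4 Gde5 probes, 3 lay between -2.59 and -3.29 on the arrays and were called lower, and the fourth, at -0.05 and -0.47, was not. The 12 tested probes of skeletal muscle markers such as Ckm and Acta1 had a median mean ratio of 0.00 and none was called. Among slow fibre markers 3 of 14 probes were called higher (Myl2 0.84, Tnni1 0.67 and 0.62), with a median of 0.38. Among adipocyte markers 6 of 9 probes were called lower (Adipoq -0.97 and -1.03 on arrays 1 and 2, and by mean ratio Cfd -0.90, Cidec -0.70, Plin1 -0.69, Retn -0.83 and -1.20), and Lep was not above background. Of 6 tested liver marker probes, 3 were called lower (Hp -0.80, Mup1 -0.97 and -0.86) and Apoh was called higher (0.81), while Apoa1, Apoa2 and Ttr were not above background. The 1 tested kidney marker probe, Kap, was called lower (-1.82). Of 8 tested endothelial marker probes, 1 was called higher (Kdr 0.42), while the median of the list was -0.12. No erythroid, leukocyte, neutrophil or fibroblast marker was called. Over all tested probes 1.49% were called higher and 1.58% lower. In whole muscle, fewer cells of a type and less RNA per cell cannot be told apart.

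Most glutathione and antioxidant enzyme genes lay close to no difference between genotypes. The median ratio of the 61 tested probes was 0.03 on array 1 and 0.07 on array 2, beside 0.02 and 0.01 over all 19098 tested probes. The Gde5 skKO signal was called higher for 2 probes, Gsto2 and Ggt6, where 1.49% of all tested probes were called higher. Ggt6 entered the test only through the Gde5 skKO channel, since WT muscle gave no signal well above background there, and with both channels required Gsto2 alone was called higher. The signal was called lower for 1 probe, Gsta3, where 1.58% of all were. Together these were 3 of 61 probes (4.92%), near the 3.07% of all tested probes called in either direction. No member was called in the direction of the dyes, which 1.69% of all tested probes were. The 95% interval of the mean ratio, from the software's spot errors, lay within 1.5-fold of no difference for 40 probes (65.6%), beside 69.5% of all tested probes.

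**Figure D1:**
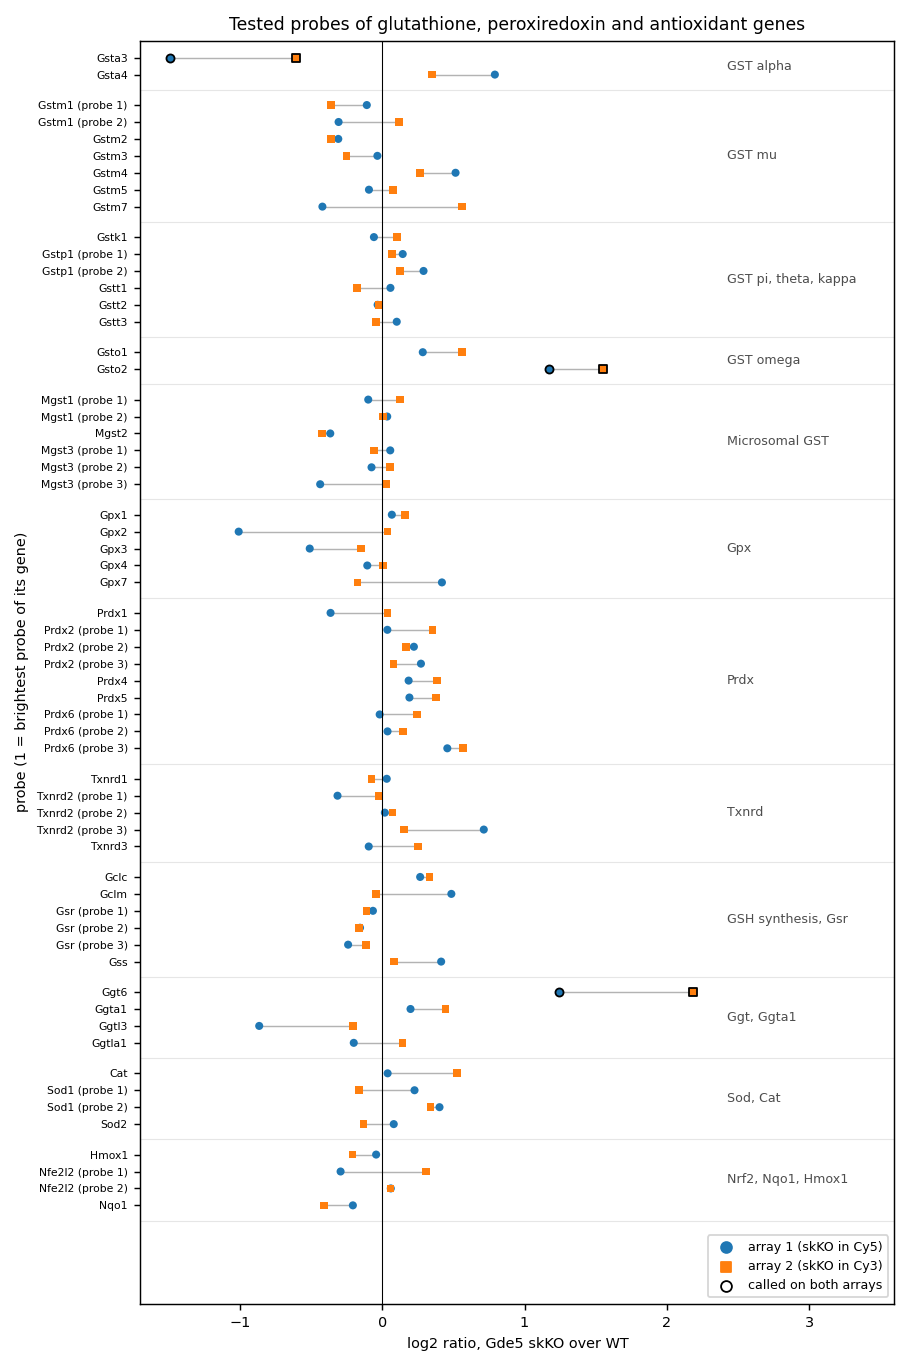
Log2 ratio of Gde5 skKO over WT (x axis) of 60 of the 61 tested probes (y axis), by enzyme family. Circles are array 1, squares array 2, and outlined symbols are the 3 called probes, Gsta3 on the left and Gsto2 and Ggt6 on the right. The other probes lie around 0.

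The median absolute difference between the arrays was 0.21 for the members and 0.23 for all tested probes. The ratio was above 0 on both arrays for 25 members and below 0 on both for 14, beside 29.3% and 24.5% of all tested probes. On array 1 alone 9 members passed p under 0.05 (13.1% of all tested probes did), and on array 2 alone 8 did (14.1%). By limma's moderated test of normexp-corrected, loess-normalized ratios, 9 members had an unadjusted p under 0.05 (8.09% of all probes) and none an adjusted p under 0.05 (0.602% of all). Among the 31 member probes with a mean signal of at least 1000, mean ratios ran from -0.33 to 0.42 with a median of 0.02 and none was called. Of all 5812 tested probes this bright, 195 were called. The 3 called members were thus dim probes.

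**Figure D2:**
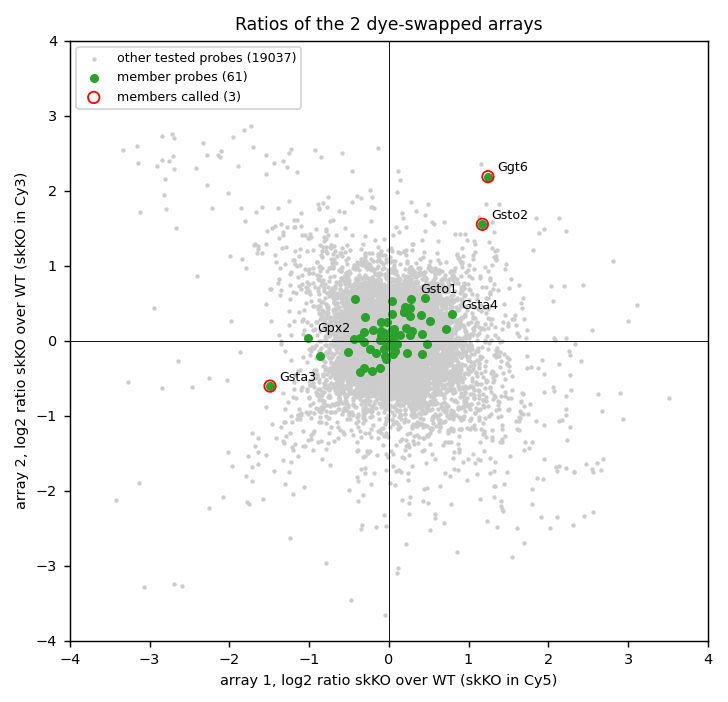
Log2 ratio of Gde5 skKO over WT on array 1 (x axis) against array 2 (y axis), with the 61 member probes in green over the other 19037 tested probes in grey. Called members are ringed in red: Ggt6 and Gsto2 at the upper right and Gsta3 at the lower left. The other members form a cluster around 0 on both arrays.

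Both omega-class transferases were above 0 on both arrays. Gsto2 encodes an enzyme with dehydroascorbate reductase activity. Its called probe (chr19:47939411-47939470, mm8) gave Gde5 skKO signals of 152 and 169 and WT signals of 67.5 and 57.6 on arrays 1 and 2. Both Gde5 skKO signals lay above both WT signals, which restates the values of the call and adds no support to it. The log2 ratios were 1.17 and 1.55, with a mean of 1.36 (95% interval 0.97 to 1.75), and the software's p-values were 9.47e-06 and 1.28e-07. With normexp and loess the mean ratio was 0.41, with loess and no background correction 0.48, and for the former limma gave an adjusted p = 0.19. The other Gsto2 probe (chr19:47923026-47923533) was not above background and had no interpretable direction, at -0.90 and 0.26.

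Gsto1, the paralog of Gsto2 that reduces the same kind of substrate, gave Gde5 skKO signals of 4870 and 5503 and WT signals of 3998 and 3733. Its Gde5 skKO signals were above its WT signals, but the ratios were 0.28 and 0.56 with p-values of 0.17 and 0.0078, so that only array 2 passed and the probe was not called. Its mean was 0.42 before and 0.41 after normexp and loess, and limma gave an adjusted p = 0.21. The starts of both genes lie 10572 bases apart on chromosome 19 of GRCm38. Cross-hybridization between paralogs could not be checked without probe sequences, here and for the alpha and mu classes and Prdx6.

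Gsto1 and Gsto2 are shown here because they are neighbours with ratios in the same direction. The sequences are the 250 bases before each transcription start in RefSeq, on the plus strand of GRCm38.p6, at chr19:47854723-47854972 for Gsto1 and chr19:47865295-47865544 for the first start of Gsto2:
Gsto1: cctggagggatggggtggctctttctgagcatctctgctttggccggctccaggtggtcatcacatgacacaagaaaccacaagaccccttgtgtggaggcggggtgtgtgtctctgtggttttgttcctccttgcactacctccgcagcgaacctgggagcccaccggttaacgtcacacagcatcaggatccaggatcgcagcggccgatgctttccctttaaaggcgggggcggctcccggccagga
Gsto2: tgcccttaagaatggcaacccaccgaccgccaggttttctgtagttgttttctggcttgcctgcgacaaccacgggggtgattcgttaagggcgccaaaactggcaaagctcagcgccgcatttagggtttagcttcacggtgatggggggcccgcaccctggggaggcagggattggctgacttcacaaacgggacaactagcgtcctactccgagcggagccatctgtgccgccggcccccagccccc
They were searched on both strands for TGACNNNGC and TGAGNNNGC, the core of the antioxidant response element that Nrf2 binds with small Maf proteins; its second form can overlap an AP-1 site. Neither sequence holds a match, nor does the second start of Gsto2. Over all genes 25.7% held a match in this window, and 15 of the 45 member genes with a promoter sequence did (33.3%). The mean ratio had a median of 0.01 over the 13 tested member genes with a match and 0.02 over the 25 without. Nqo1, an Nrf2 target, held no match in this window, and the partner gene Srxn1 held 2. A search of these 250 bases therefore cannot decide whether Nrf2 acts on a gene, and this was not tested.

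The alpha class held the lower call and an uncalled probe in the other direction. Gsta3 encodes an alpha-class transferase that conjugates electrophiles. Its brighter probe (chr1:21250259-21250318, mm8) gave Gde5 skKO signals of 45.3 and 61.5 and WT signals of 127 and 93.6. Both Gde5 skKO signals lay below both WT signals, which restates the values of the call and adds no support to it. The ratios were -1.49 and -0.61, with p-values of 5.72e-07 and 0.043. Their mean was -1.05 (95% interval -1.46 to -0.63), and -0.28 with normexp and loess, where limma gave an adjusted p = 0.52. At p under 0.01 on both arrays it was not called. Its second probe (chr1:21250162-21250221) was not above background, with 0.16 and -1.39.

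The promoter of Gsta3 is shown because it holds 1 match to the searched letters, in capitals, at chr1:21240335-21240584 (plus strand, GRCm38.p6):
Gsta3: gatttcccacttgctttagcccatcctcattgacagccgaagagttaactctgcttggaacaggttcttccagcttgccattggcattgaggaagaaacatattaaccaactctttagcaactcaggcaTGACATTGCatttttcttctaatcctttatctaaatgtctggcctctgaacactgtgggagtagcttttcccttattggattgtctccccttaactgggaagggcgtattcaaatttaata
The promoter of Ggt6, called in the other direction, held 1 match too. A match of letters is not a binding site. Beside Gsta3, 6 of 9 adipocyte and 3 of 6 liver marker probes were called lower and 1 liver marker probe higher, as given above. With normexp and loess the median ratios of these lists were -0.34 and -0.18. Adipocyte marker signals were summed over the brightest tested probe of each gene. The sums were 43232 and 41144 in Gde5 skKO and 43777 and 45066 in WT muscle. The brightest Fabp4 probe gave most of each sum, at 38866.5 and 36768.5 in Gde5 skKO and 35638.4 and 37186.9 in WT muscle. Mean ratios of the 3 Fabp4 probes ran from -0.11 to 0.05. Liver marker signals, summed in the same way, were 1637 and 1771 in Gde5 skKO and 2826 and 2742 in WT muscle. Their part in the Gsta3 ratio was not tested.

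Gsta4, which acts on the lipid aldehyde hydroxynonenal, was printed in 10 spots on each array. They averaged 0.79 ± 0.14 (SD over 10 spots) on array 1, where each of the 10 spots had p under 0.05, and 0.35 ± 0.09 on array 2, where no spot did. The spots of both arrays lay above 0, and those of array 1 (lowest 0.59) did not overlap those of array 2 (highest 0.48). The spread among spots was thus smaller than the difference between hybridizations. The probe was not called, and it was called higher when p was taken from the mean over spots, a choice made after its values were seen. With normexp and loess its mean was 0.20. Gsta1 and Gsta2 were not above background.

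Prdx2 and Sod1 each had a probe in 10 spots too. That of Prdx2 gave 0.04 ± 0.08 and 0.35 ± 0.12. The Sod1 one was the dimmest of the 3 Sod1 probes, was not above background and was not tested. It gave 1.99 ± 0.37 on array 1 and -1.52 ± 0.68 on array 2, the same dye being brighter each time. Over 149 probes printed more than 5 times, the median SD among spots was 0.094 and 0.098, and the median difference between arrays 0.18.

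**Figure D3:**
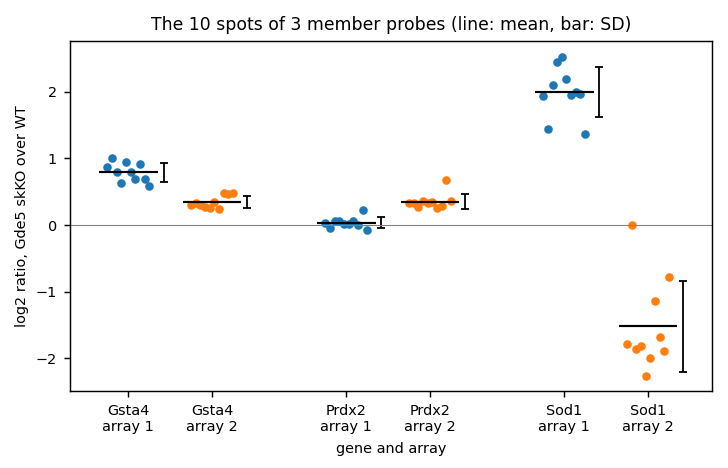
Log2 ratio of Gde5 skKO over WT (y axis) of the 10 spots of a Gsta4, a Prdx2 and a dim, untested Sod1 probe on each array (x axis), with the mean as a line and the SD as a bar. The Gsta4 spots lie above 0 on both arrays, and the Sod1 spots lie on opposite sides of 0, except 1 spot listed at 0.

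The mu class had no call among 7 tested probes of 6 genes. Gstm2 was the lowest, with Gde5 skKO signals of 4327 and 4680 against WT signals of 5362 and 6007. Its ratios were -0.31 and -0.36, with p-values of 0.13 and 0.082, and limma gave an adjusted p = 0.35. The brightest Gstm1 probe gave -0.11 and -0.36 and its other probe -0.31 and 0.12, so probes of Gstm1 differed in sign on array 2. Gstm3 gave -0.03 and -0.25, Gstm5 -0.09 and 0.07, and Gstm7 -0.42 and 0.56. Gstm4 was on the other side of 0, at 0.52 and 0.26, and passed on array 1 alone (p-value 0.022). Gstm6 was not above background.

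No transferase of the pi, theta or kappa class was called. Gstp1, the pi-class enzyme, gave 0.14 and 0.07 for its brighter probe and 0.29 and 0.12 for the other. Gstk1, found in mitochondria and peroxisomes, gave -0.06 and 0.11. The theta class was near 0 for Gstt1 (0.06 and -0.18), Gstt2 (-0.03 and -0.03) and Gstt3 (0.10 and -0.04), and Gstt4 was not above background. Of the microsomal transferases, membrane enzymes of another fold, Mgst1 (-0.10 and 0.12) and Mgst3 (0.06 and -0.06) were at 0 within the difference between arrays. Mgst2 gave -0.37 and -0.42, neither of which passed, and a mean of -0.13 with normexp and loess.

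Of the glutathione peroxidases none was called. Gpx1, the cytosolic selenoenzyme, gave 0.07 and 0.16, with a 95% interval of the mean from -0.17 to 0.40. Gpx4, which reduces peroxidized membrane lipids, gave -0.11 and 0.00 with an interval from -0.33 to 0.23. Gpx3, the secreted plasma form, gave Gde5 skKO signals of 1333 and 1389 and WT signals of 1898 and 1541. Its ratios were -0.51 and -0.15, and only array 1 passed, with a p-value of 0.015. Gpx2, best known from gut epithelium, passed on array 1 alone, with -1.01 and 0.04 and a p-value of 0.0023 there. Gpx7, an enzyme of the endoplasmic reticulum, had 0.42 and -0.17, and Gpx5 and Gpx6 were not above background.

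No peroxiredoxin was called. Of 10 tested probes of 6 genes, 8 were above 0 on both arrays, more than the 29.3% of all tested probes, and none was below 0 on both. Their median mean ratio was 0.19, or 0.15 with normexp and loess. The probes share both hybridizations, and 6 of them come from Prdx2 and Prdx6. Prdx5, found in mitochondria, peroxisomes and cytosol, gave 0.19 and 0.38, with p-values of 0.35 and 0.069, and limma an adjusted p = 0.49. Prdx4 of the endoplasmic reticulum gave 0.19 and 0.38, with p-values of 0.37 and 0.065. The other Prdx2 probes gave 0.22 and 0.17, and 0.27 and 0.08. Prdx2 is abundant in red cells, and the 8 erythroid marker probes had a median mean ratio of -0.21. Erythroid signals, summed over the brightest tested probe of each gene, were 33308 and 35515 in Gde5 skKO and 42356 and 37893 in WT. The part of red cells in the Prdx2 ratios was not tested.

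Prdx6, the peroxiredoxin that also has phospholipase activity, differed by probe. Its brightest gave -0.02 and 0.24 and the next 0.04 and 0.14. The third, dim probe gave 0.46 and 0.57, of which array 2 passed (p-value 0.045), and a mean of 0.14 with normexp and loess. Prdx6-rs2, a pseudogene in RefSeq, was not above background. Prdx1, the abundant cytosolic form, gave -0.36 and 0.04, and neither passed. Mitochondrial Prdx3 could be read on array 1 only, at -0.13, which did not pass, since its spot on array 2 bore an outlier mark.

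The reductases and the glutathione synthesis enzymes had no call. Txnrd1, the cytosolic thioredoxin reductase, gave 0.03 and -0.08. The brightest probe of Txnrd2, the mitochondrial one, gave -0.31 and -0.02, the next 0.02 and 0.07, and the dimmest 0.71 and 0.15 with a p-value of 0.015 on array 1, so its probes disagreed. Txnrd3 gave -0.10 and 0.25. The 3 probes of Gsr, glutathione reductase, were below 0 on both arrays, with means from -0.09 to -0.18.

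Gclc, the catalytic subunit of the rate-limiting enzyme of glutathione synthesis, gave Gde5 skKO signals of 1264 and 1412 and WT signals of 1051 and 1122. Both Gde5 skKO signals lay above both WT signals. Its ratios were 0.27 and 0.33, neither of which passed (p-values 0.20 and 0.11), and limma gave an adjusted p = 0.52. The regulatory subunit Gclm gave 0.49 and -0.05, and Gss, glutathione synthetase, 0.41 and 0.08.

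Gamma-glutamyltransferases cleave extracellular glutathione. Ggt6, a family member whose substrates are less known, gave Gde5 skKO signals of 66.7 and 54.6 and WT signals of 28.2 and 12.0. The WT signal was not well above background on either array, so its fold has only a bound and the direction of its call was partly set by the filter on dim probes. The ratios at chr11:72254528-72254587 (mm8) were 1.24 and 2.19, with p-values of 0.0013 and 0.0024. The mean with normexp and loess was 0.25 (limma's adjusted p = 0.53). For a bound, signals were corrected by normexp with its offset of 50 and normalized by loess and Aquantile. The WT value of array 2, which lay below the lowest signal well above background, was raised to it. On this scale, which the offset compresses for dim probes, the Gde5 skKO value was at least 1.16 times the WT value. Of the genes beside Ggt6, Mybbp1a was called higher (0.43 and 0.62), while Smtnl2 on the other side gave -0.30 and -0.49 and was not called.

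The other members of this family had no call. Ggtl3 (now Ggt7) gave -0.87 and -0.21 and passed on array 1 alone (p-value 0.019), and Ggtla1 (now Ggt5) gave -0.20 and 0.14. Ggt1, the main enzyme of the family, was not above background. Ggta1, caught by its name, gave 0.20 and 0.45 and passed on array 2 alone (p-value 0.033).

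No superoxide dismutase was called, nor was catalase. The brightest probe of Sod1, the cytosolic dismutase, gave 0.23 and -0.16, and a dimmer one 0.40 and 0.34, and none of these passed. Sod2 of mitochondria gave 0.08 and -0.13 (95% interval of the mean -0.31 to 0.26), and extracellular Sod3 was not above background. Catalase (Cat) gave Gde5 skKO signals of 3564 and 4672 and WT signals of 3472 and 3251. Its ratio was 0.04 on array 1 and 0.52 on array 2, where the p-value was 0.013, so that the arrays differed.

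Neither Nfe2l2, the gene of Nrf2, nor Nqo1 or Hmox1, both Nrf2 targets, was called. Of Nfe2l2, the brighter probe gave -0.29 and 0.31 and the other 0.06 and 0.06. Nqo1, a quinone reductase, gave Gde5 skKO signals of 1571 and 1524 and WT signals of 1813 and 2025, with ratios of -0.21 and -0.41. Only array 2 passed, with a p-value of 0.049. Hmox1, heme oxygenase, gave -0.04 and -0.21.

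Partner genes of these enzymes were read in 6 lists, where the share over all tested probes was 1.49% called higher and 1.58% called lower. Of 35 tested probes of thioredoxin and glutaredoxin partners, 2 were called higher and 1 lower, with a median of 0.06. Msrb1, a selenoenzyme that repairs oxidized methionine, gave 0.61 and 0.55. Srxn1, sulfiredoxin, which restores overoxidized peroxiredoxins, gave 1.64 and 0.74 for the called probe, but a mean of 0.20 with normexp and loess. Its other probes, at 0.39 and 0.43, and at 1.05 and 0.46, were not called. Sesn2, a stress-induced sestrin, was the lower one, at -0.52 and -0.53, with a mean of -0.29 with normexp and loess. Its other probe gave 0.38 and -0.02 and was not called.

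Of 37 probes of Nrf2 regulators and further targets, 3 were called higher and 1 lower, with a median of 0.01. The metallothioneins, metal-binding proteins, gave 0.55 and 0.46 for the called Mt1 probe, 0.07 and 0.12 for the other, and 0.99 and 0.75 for Mt2. Bach1, a repressor that competes with Nrf2, gave 0.57 and 0.52, with a mean of 0.29 with normexp and loess. Osgin1, a stress-response gene, gave -0.64 and -0.43 for the called probe and -0.41 and -1.10 for a second tested one that was not called. Keap1, which marks Nrf2 for degradation, gave 0.17 and 0.22 and was not called.

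Of 29 probes for NADPH supply, only Tkt was called, the transketolase of the pentose phosphate pathway, lower at -0.41 and -0.45 (median of the list -0.01). Of 38 probes for glutathione precursors and turnover, 3 were called lower and none higher, with a median of -0.05. They were Chac1, which breaks down glutathione inside cells (-0.58 and -0.60), Mpst, which handles mercaptopyruvate (-0.47 and -0.44), and the taurine transporter Slc6a6 (-0.75 and -0.66 for the called probe). For the called Slc6a6 probe the mean was -0.30 with normexp and loess, and its other probe, at -0.44 and -0.23, was not called. None of 26 selenoprotein probes (median -0.09) and none of 15 probes for sources of reactive oxygen species (median -0.05) was called.

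**Figure D4:**
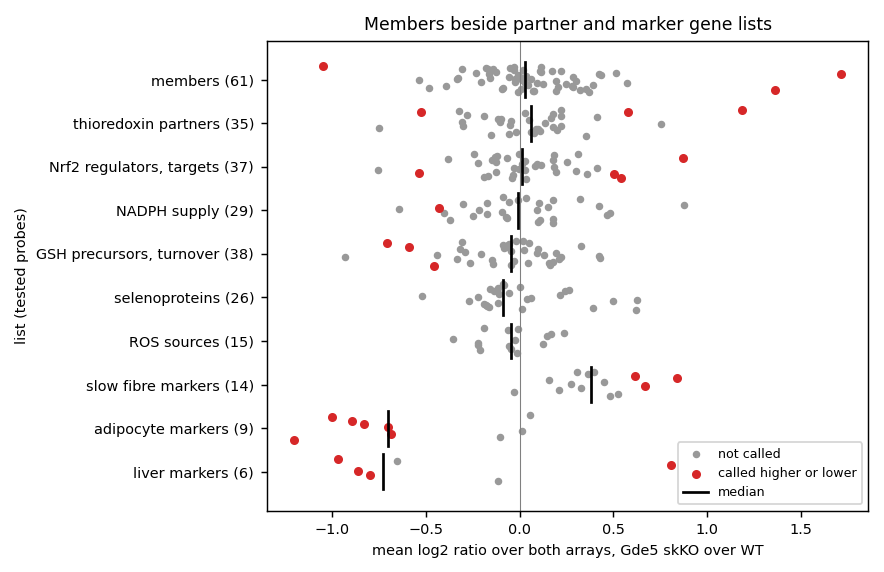
Mean log2 ratio of Gde5 skKO over WT (x axis) of each tested probe of the members, the 6 partner lists and 3 marker lists (y axis, number of tested probes in parentheses). Red points were called, and the black line is the median. The medians of members and partner lists lie between -0.09 and 0.06, that of slow fibre markers at 0.38, and those of adipocyte and liver markers at -0.70 and -0.73.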

How the data were processed

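RNA of GAS muscle was hybridized to 2 dye-swapped Agilent 44K arrays on 1 slide, read in 1 scan. With Feature Extraction 9.5.3.1 the authors subtracted background, detrended and dye-normalized the signals and took for each spot the log10 ratio of Cy5 to Cy3. The deposited p-value of each ratio comes from the software's error model, and the deposited intensity of spot and local background covers both channels. The deposited series table repeats the log10 ratios. Arrays hold no read depth, and their number limits the precision.

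Log2 ratios of Gde5 skKO over WT were formed, with a probe's spots summarized by their mean ratio and median p. Control spots and outlier marks were left out. A tested member counts in the totals but is not reported here. Coordinates are the array's, on mm8. Names were matched to RefSeq (GRCm38.p6), 71 member probes by accession, 10 by symbol and 1 by synonym. Alternatives used limma 3.58.1 in R 4.3.3 (normexp offset 50, loess, Benjamini-Hochberg adjustment), tested on simulated data. The text names each called member, the brightest probe or a range for others, and each called gene of the lists. Members and lists were chosen with earlier results of these data known, and the promoter motif after the values were seen.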

Additional observations from a re-analysis of the deposited data

How the results depend on the processing

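The median ratio of the members kept its direction under each alternative for which it was computed, from 0.01 to 0.07. Against 2 higher, 1 lower and 0 dye-direction calls, limma's unadjusted test gave 6, 3 and 2, and its adjusted test 0 higher and 0 lower. The methods' t-test gave 2 lower unadjusted, and 0 higher and 0 lower adjusted. At p under 0.01 there were 0 lower calls, with p adjusted per array 1 higher and 0 lower, and with both channels above background 1 higher. Read from 1 array, higher calls numbered 5 to 6 and lower calls 2 to 4. Other settings kept these counts within 1.5 times. With p from the mean over spots, an alternative added after seeing the data, the counts were 3 higher and 1 lower. Gsto2, Ggt6 and Gsta3 kept their direction under each alternative, without a call under limma's adjusted test, and the cause of the other changes was not tested.

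Every ratio pairs both genotypes within an array, so the pairing is part of each value and no further block was fitted. The slide was not run as a block, since both arrays share it. Signal over background was a limit: 20 of 81 member probes were not tested. With normexp and loess the mean ratios of Gsto2 and Gsta3 moved from 1.36 and -1.05 to 0.41 and -0.28. The offset of 50 in both channels draws ratios of such dim probes towards 0, as does background left in both channels. The smaller values are thus partly set by these settings, while bright Gsto1 kept 0.42 and 0.41. For Ggt6 only a bound on the offset scale was given.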
